A study of Mus musculus with 4 samples.

Results

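The regulators that set up dendritic cell identity were followed as a group of 8 genes: Irf8, Irf4, Batf, Batf3, Zbtb46, Id2, Tcf4 and Flt3. They were chosen by name and make up 8 of the 31053 genes in the matrices. Each was found once in every matrix. Their counts were summed within 5 kinds of cell, taken by marker genes that do not include any of the 8: type 1 conventional dendritic cells (cDC1), type 2 conventional dendritic cells (cDC2), plasmacytoid dendritic cells, monocytes and B cells. The cells were CD45-sorted leukocytes of the whole colon of C57BL/6 mice, all wild type (WT), with no transgene or deletion. Control mice had the control treatment and stress mice were restrained daily for 7 days, and each group had 2 single-cell RNA-seq libraries. Neither the animals behind each library nor their age is given in the sources used here. A p-value here therefore rests on at most 4 libraries, whose variation may be technical.

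Dendritic cells arise from bone marrow progenitors that depend on FLT3, a receptor tyrosine kinase, and its ligand. A small set of transcription factors then fixes the branch. IRF8 and BATF3 specify and maintain cDC1, which cross-present antigen to CD8 T cells. IRF4 supports cDC2, which prime CD4 T cells in mucosa and skin. TCF4 (E2-2), an E protein, is the master regulator of plasmacytoid cells, the specialised producers of type I interferon, and ID2 binds E proteins and blocks them, which favours the conventional branch. ZBTB46 marks the conventional lineage and its committed precursors against monocytes and plasmacytoid cells. BATF, an AP-1 family protein, pairs with JUN proteins and binds DNA together with IRF4 or IRF8, and can stand in for BATF3.

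The matrices held 24915 barcodes, of which 20476 had at least 500 unique molecular identifiers (UMIs) and at most 10% mitochondrial UMIs. These kept barcodes carried between 12552824 and 36370030 UMIs per library, and the median per barcode lay between 2174 and 4547 UMIs. Ptprc, which encodes CD45, had a UMI in 67.5 to 84.8% of kept barcodes, and at least 3 fibroblast collagen or Dcn UMIs were seen in 9.17% of control 1 against at most 0.338% of any other library. The libraries shared 38 barcode sequences over all pairs. In the order control 1, control 2, stress 1 and stress 2, which is kept throughout, the cDC1 gate held 25, 24, 16 and 17 cells, the cDC2 gate 52, 26, 63 and 32, the plasmacytoid gate 0, 7, 23 and 16, the monocyte gate 61, 54, 260 and 142 and the B gate 755, 2475, 3049 and 1782. No cell with a Siglech UMI, the mark of plasmacytoid cells, fell in the cDC2 gate, so 0 cells had to be removed from it.

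Genes outside the gates were used to check them. The 6 cDC1 markers summed to between 1887 and 2822 CPM (the gene's UMIs scaled to a common total over all UMIs of the gate in a library, in counts per 1000000) in the cDC1 gate and to at most 506 CPM in any other, and the plasmacytoid list to between 3705 and 4432 CPM in its gate and at most 530 CPM elsewhere. The 6 cDC2 markers did not set their gate apart, with 294 to 486 CPM in the cDC2 gate against 578 to 649 CPM in the monocyte gate. The cDC2 gate is therefore described by what defines it, at least 2 UMIs of Cd209a, Clec10a, Itgax and Mgl2 together and at least 10 of MHC class II, with no Xcr1, Clec9a or Siglech UMI and at most 1 UMI each of the monocyte, macrophage, T cell and B cell exclusion genes. T cell markers summed to at most 20.5 CPM in the cDC1 and cDC2 gates. Markers of natural killer cells summed to 0, 4.90, 2.61 and 71.8 CPM in the cDC2 gate, with all 4 detected in stress 2.

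Irf8 and Batf carry the stress results, so their upstream sequences are shown. Irf8 lies on chromosome 8 (chr8:120736358-120756694, plus strand) and Batf on chromosome 12 (chr12:85686669-85709087, plus strand) of GRCm38, the mm10 build of the files. The sequences are the parts of the RefSeq promoter windows (GRCm38.p6) that lie before the annotated gene, chr8:120736108-120736357 for Irf8 and chr12:85686470-85686668 for Batf. Capitals mark matches to any of 4 motifs searched on both strands: GAS, the gamma interferon activated site (TTCNNNGAA), the core of the interferon-stimulated response element, AP-1 (TGANTCA) and EICE, the composite ETS and IRF element.
Irf8: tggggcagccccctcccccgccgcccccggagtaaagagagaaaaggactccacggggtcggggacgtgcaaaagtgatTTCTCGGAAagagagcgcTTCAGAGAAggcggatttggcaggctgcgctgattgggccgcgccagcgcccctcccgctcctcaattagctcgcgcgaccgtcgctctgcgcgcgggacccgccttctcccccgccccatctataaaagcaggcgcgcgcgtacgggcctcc
Batf: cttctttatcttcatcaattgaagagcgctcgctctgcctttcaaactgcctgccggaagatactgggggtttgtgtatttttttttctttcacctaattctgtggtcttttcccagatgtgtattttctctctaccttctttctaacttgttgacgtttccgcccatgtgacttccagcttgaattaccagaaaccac
The Irf8 window shown holds 2 GAS matches, TTCTCGGAA at -171 and TTCAGAGAA at -153 from the start, and none of the other 3 motifs. Another Irf8 window, chr8:120738389-120738688, lies within the gene and holds none of the 4. The Batf window holds none of the 4. A GAS match occurs in 8.3% of the 32851 windows of 300 bases in the table, the interferon element in 3.44%, AP-1 in 7.81% and EICE in 2.72%, and a match is a description, not a binding site. Of the 7 genes with a window, Batf3 had a GAS match at -239 and Zbtb46 an AP-1 match at -61, and Id2, Irf4 and Flt3 had none of the 4 motifs.

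The first comparison asks how the 8 genes were spread over the gates. Irf8 and Batf3, the cDC1 pair, were higher in the cDC1 gate than in the cDC2 gate, as were Id2 and Flt3, and Irf4 and Tcf4 were lower, with the largest differences for Irf8 and Irf4 among these 6. The plasmacytoid gate held the most Tcf4 and next to no Id2 or Batf3. Between cDC1 and cDC2, 6 of the 8 genes passed the filter on low counts and all 6 passed the test, 4 higher and 2 lower in cDC1, where 20% of all genes tested passed, 8.04% higher and 11.9% lower (edgeR's quasi-likelihood test with the library as a block, Benjamini-Hochberg adjusted p under 0.05).

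**Figure D1:**
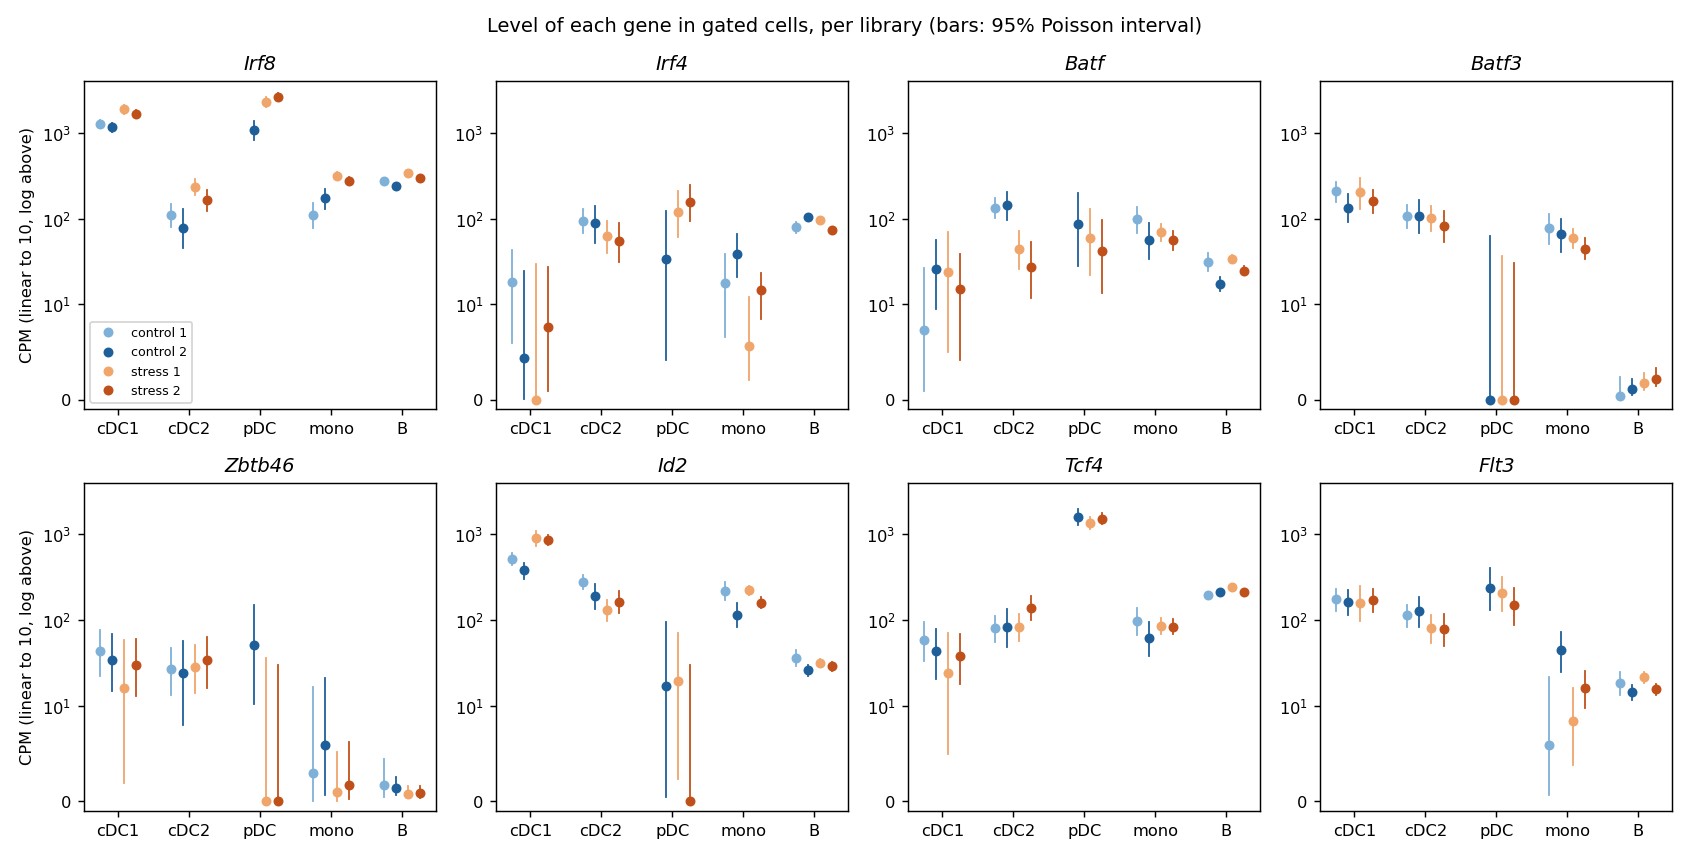
Level of each of the 8 genes in the cDC1, cDC2, plasmacytoid (pDC), monocyte (mono) and B gates, 1 point per library, in CPM on an axis that is linear to 10 and logarithmic above, with exact 95% Poisson intervals. Irf8 is highest in the cDC1 and plasmacytoid gates, Tcf4 in the plasmacytoid gate, and Batf in the cDC2 gate lies at 134 and 142 CPM in the controls and at 44.4 and 27.4 CPM under stress.

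Irf8 stood at 1258, 1166, 1866 and 1670.1 CPM in the cDC1 gate and at 109, 78.5, 235 and 164 CPM in the cDC2 gate. The ranges did not overlap, and the difference was 3.36 on the log2 scale (SE 0.16, edgeR adjusted p = 1.12e-11). The plasmacytoid gate held 1076 CPM in control 2, below cDC1, and 2300 and 2602 CPM in stress 1 and 2, above it, so the ranges of both gates overlapped. B cells, which use IRF8 in their own development, had between 238 and 335 CPM, and monocytes between 110.1 and 312 CPM, so the order from B to monocyte to cDC2 was not separated by the spread over libraries.

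Batf3 followed the order cDC1, cDC2, monocyte, with means of 175 ± 34.7, 99.7 ± 12 and 61.6 ± 13.6 CPM (SD, n = 4), and no neighbours in that order overlapped. It was 0.80 higher in cDC1 than in cDC2 on the log2 scale (SE 0.21, edgeR adjusted p = 0.00928), a call that was lost without control 1 (adjusted p = 0.0600) and with DESeq2 (adjusted p = 0.126). B cells had 0.430 to 2.22 CPM. The plasmacytoid gate had 0 Batf3 UMIs among 280965, so by a floor of 3 counts over its libraries the mean was at least 16.4-fold higher in cDC1 and at least 9.33-fold higher in cDC2.

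Id2 gave 516, 381, 901 and 867 CPM in the cDC1 gate, the highest of these 5 gates, and 1.74 more on the log2 scale than in cDC2 (SE 0.38, edgeR adjusted p = 0.0282). In edgeR this call was lost without stress 2 (adjusted p = 0.0501) and with scored doublets left out (adjusted p = 0.0714). The cDC2 and monocyte gates overlapped at 192 ± 65.0 and 180 ± 51.6 CPM (SD, n = 4). B cells stood at 30.9 ± 4.43 CPM and plasmacytoid cells at 12.3 ± 10.7 CPM (SD, n = 3), which rests on 3 UMIs in all.

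Tcf4 had nearly the reverse order of Id2. The plasmacytoid gate held 1605, 1362 and 1528 CPM in control 2, stress 1 and stress 2, B cells between 197 and 241 CPM, and the cDC1 gate 58.2, 43.3, 24.1 and 37.9 CPM, the lowest of these 5 gates. The cDC1 gate lay below cDC2 by a log2 difference of -1.19 (SE 0.30, edgeR adjusted p = 0.00644), a call that was lost without stress 2 (adjusted p = 0.0864) and with DESeq2 (adjusted p = 0.114). In the 2 stress libraries, which alone had at least 10 cells in both gates, Tcf4 was 3.47 higher in plasmacytoid cells than in cDC2 (SE 0.23, edgeR adjusted p = 5.20e-06) and Id2 was lower, by a log2 difference of -4.18 (SE 0.69, edgeR adjusted p = 0.00126, and 0.0866 with DESeq2). Of 6 members tested in that comparison 2 were higher and 2 lower, where 29.9% of all genes passed, 13.3% higher and 16.6% lower, and this fit had 1 residual degree of freedom. The 2 lower members were Id2, with 2 and 0 plasmacytoid UMIs in stress 1 and 2, and Batf3, with 0 in both. They passed the filter on low counts through cDC2 alone, which favoured the direction of these calls. All 46 plasmacytoid cells had a Tcf4 UMI, and an Id2 UMI was seen in 1 of 7, 1 of 23 and 0 of 16 cells of control 2, stress 1 and stress 2.

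Irf4 was low in cDC1, with 5, 1, 0 and 2 UMIs in the 4 libraries, and stood at 94.8, 88.3, 62.6 and 54.7 CPM in cDC2. The difference was -3.08 on the log2 scale (SE 0.43, edgeR adjusted p = 2.12e-05). Irf4 passed the filter on low counts there through cDC2 alone. The cDC2, B and plasmacytoid ranges overlapped, with B cells at 87.7 ± 14.1 CPM (SD, n = 4), and the monocyte gate, at 5.62 to 38.6 CPM, lay below cDC2 and B cells and overlapped the plasmacytoid gate, which had 34.1 CPM in control 2. In cDC2 cells of control 1 both Irf4 and Irf8 were detected in 3 of 52 cells, Irf4 without Irf8 in 17 and Irf8 without Irf4 in 7. The counts were 2, 8 and 5 of 26 in control 2, 7, 8 and 19 of 63 in stress 1 and 2, 3 and 10 of 32 in stress 2, so cells with Irf8 alone outnumbered those with Irf4 alone in the stress libraries and not in the controls. These are counts of cells at full depth, and a cell without a UMI may still express the gene.

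Zbtb46 separated the conventional gates from monocytes and B cells at low counts. It gave 43.6, 34.7, 16.1 and 30.3 CPM in cDC1 and 26.7, 24.5, 28.7 and 34.2 CPM in cDC2, which overlapped, against at most 5.94 CPM in monocytes and at most 1.72 CPM in B cells. The difference between B cells and cDC2 was -4.73 on the log2 scale (SE 0.46, edgeR adjusted p = 3.75e-09). Zbtb46 and Batf3 passed the filter there through cDC2 alone. Zbtb46 passed it in none of the other gate comparisons, and the plasmacytoid gate had 3 UMIs in control 2 and 0 in both stress libraries.

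Flt3, the receptor, varied little over the libraries of the cDC1 gate, at 168 ± 6.06 CPM (SD, n = 4), overlapping the plasmacytoid gate at 198 ± 45.8 CPM (SD, n = 3) and above cDC2 at 100.3 ± 24.4 CPM. The gap between cDC1 and cDC2 was 0.74 on the log2 scale (SE 0.22, edgeR adjusted p = 0.0184), a call that was lost without stress 1 (adjusted p = 0.0669), without stress 2 (adjusted p = 0.100), with DESeq2 (adjusted p = 0.186) and without the filter (adjusted p = 0.0600). Flt3 in monocytes stood below cDC2 by a log2 difference of -2.62 (SE 0.32, edgeR adjusted p = 1.62e-05), and of 7 members tested there 3 were lower and 0 higher, where 27.6% of all genes passed, 13.6% higher and 14% lower. The others were Irf4, at -2.25 (SE 0.32, edgeR adjusted p = 4.57e-05), and Batf3, at -0.81 (SE 0.19, edgeR adjusted p = 0.00427, and 0.0569 with DESeq2). Flt3 and Irf4 passed the filter there through cDC2, as their monocyte counts alone were too low. Against cDC2, B cells were higher for 2 of 8 members and lower for 4, where 42.3% of all genes passed, 20.7% higher and 21.6% lower, with Irf8 0.94 and Tcf4 1.11 higher (edgeR adjusted p = 5.62e-05 and 1.05e-05). Between plasmacytoid cells and cDC1, Tcf4 and Irf4 were higher and Id2 and Batf3 lower among 6 members tested, where 36.5% of all genes passed, 19.4% higher and 17% lower. This fit, too, used the 2 stress libraries alone and had 1 residual degree of freedom. Batf3, with 0 UMIs in plasmacytoid cells, and Id2, with 2 and 0, passed the filter through cDC1 alone. Irf4, with 0 and 2 UMIs in cDC1, and Tcf4, with 3 and 10, passed it through plasmacytoid cells alone. The filter thus favoured the direction of these calls. The Batf3 call was not kept in every alternative (adjusted p of up to 0.276 over the edgeR and DESeq2 fits).

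The second comparison asks what 7 days of restraint changed. Within cDC2 cells Batf fell and in monocytes Irf8 rose. Of the other 25 tests of a member within a gate none passed. In the cDC2 gate 7 of the 8 genes passed the filter and 1, Batf, fell, where 3.04% of 3980 genes passed, 1.86% higher and 1.18% lower. In monocytes 1 of 7 members rose, where 0.838% of 6086 genes passed, 0.46% higher and 0.378% lower. None of 5 members passed in cDC1, where 0.347% of genes did (0.315% higher and 0.0315% lower), and none of 8 in B cells, where 0.568% did (0.438% higher and 0.13% lower). An unadjusted p under 0.05 in edgeR was reached by 2 of 5 cDC1 members, Irf8 and Id2, where 205 of 3170 genes reached it. In B cells 0 of 8 members did, where 1463 of 10741 genes did.

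**Figure D2:**
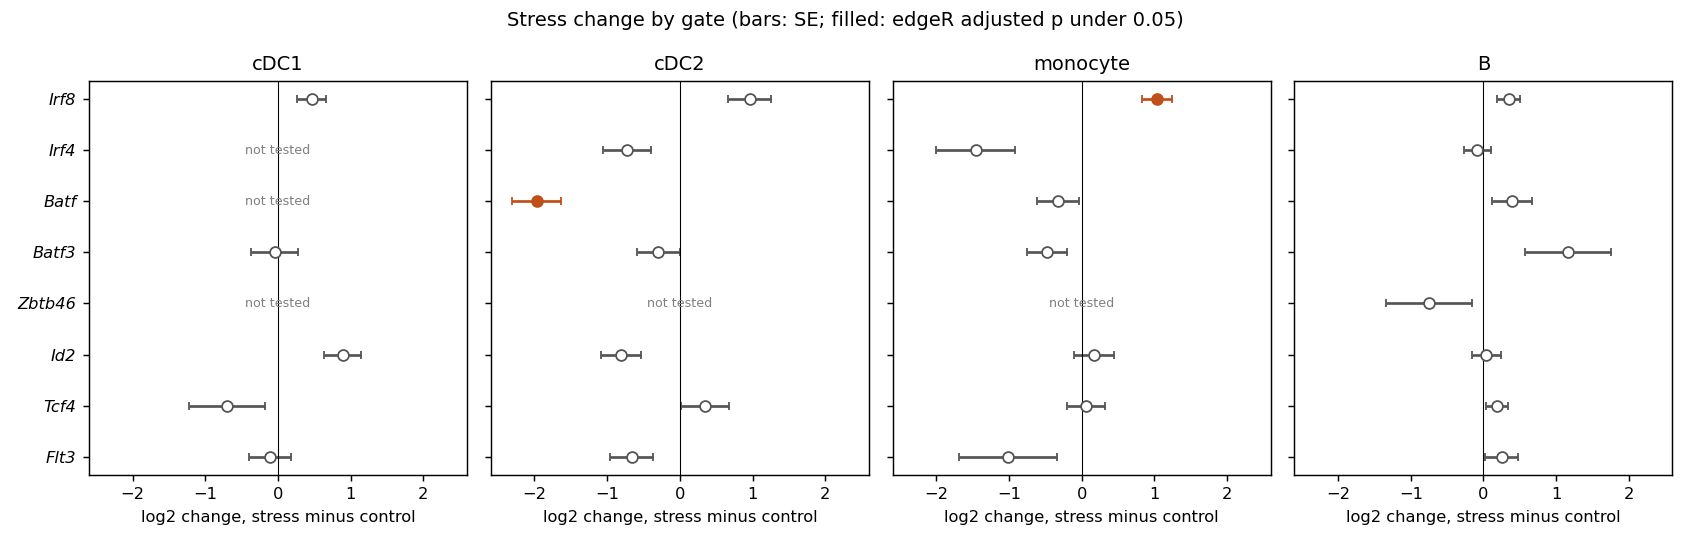
Log2 change from control to stress of each member in 4 gates, from the edgeR fits, with bars of 1 standard error. Filled points passed at an adjusted p under 0.05 (Batf in cDC2 at -1.97 and Irf8 in monocytes at 1.04), open points did not, and genes under the filter on low counts are marked as not tested.

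Batf in the cDC2 gate stood at 134 and 142 CPM in the controls and at 44.4 and 27.4 CPM under stress, from 55, 29, 17 and 8 UMIs. Both stress libraries lay far below both controls (138 ± 6.01 against 35.9 ± 12 CPM, SD, n = 2 each). The change was -1.97 on the log2 scale (SE 0.34, edgeR adjusted p = 0.00100). After thinning each cell to 1000 UMIs, 7.84 and 15.4% of control and 3.17 and 9.38% of stress cells kept a Batf UMI, so the groups overlapped in that share (two-sided exact permutation p = 0.667, where 2 against 2 libraries cannot go below 0.333). In B cells, where the level is low, 1.67% ± 0.305 and 2.77% ± 0.218 of cells did (SD, n = 2). At 2000 UMIs per cell the cDC2 shares were 15.7% ± 0.435 in controls and 3.23% ± 4.56 under stress. Without thinning they were 48.1% ± 2.72 and 21.2% ± 5.33. The groups did not overlap at either of these depths (SD, n = 2, exact permutation p = 0.333 for each). Median depths were 6077 to 10285 UMIs per cell in cDC2 and 1906 to 3563 in B cells.

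The Batf change was compared with that in B cells, where Batf gave 31.4, 17.4, 34.2 and 24.8 CPM. In the B gate the 5 plasma cell markers, all detected in every library, summed to 4706, 2705, 12766 and 15734 CPM, and the 6 B cell markers to 3231, 3736, 2438 and 2636 CPM, and their part in the difference was not tested. The difference between both changes was -2.39 (SE 0.43, edgeR adjusted p = 1.97e-05), and 1.45% of all genes passed that test, 0.701% higher and 0.746% lower, with 1 of 8 members lower. In that fit the spread of the typical gene was pooled over genes and was not its own. Against monocytes, with Batf at 98.2, 56.4, 69.4 and 55.8 CPM, the difference of -1.69 did not pass (SE 0.43, edgeR adjusted p = 0.173), and 0% of 4941 genes passed there, with 361 at an unadjusted p under 0.05. In cDC1, where Batf was at 7.27 to 26.0 CPM, the gene was under the filter.

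Irf8 stood at 110.1 and 172 CPM in control monocytes and at 312 and 272 CPM in stress monocytes, from 37, 58, 333 and 317 UMIs. The stress libraries lay above both controls, by 1.04 on the log2 scale (SE 0.21, edgeR adjusted p = 0.0207). The call was lost in edgeR without stress 1 (adjusted p = 0.0974) and with gates that asked for 1 UMI more (adjusted p = 0.151), and in DESeq2 (adjusted p = 0.251). At 1000 UMIs per cell 13.1% ± 2.75 of control and 22.6% ± 1.2 of stress monocytes had an Irf8 UMI (SD, n = 2, exact permutation p = 0.333), against 1.41 to 3.82% of T cells, a class that should lack it, at median depths of 4264.5 to 8665 UMIs in monocytes and 2261.5 to 4629 in T cells. At 2000 UMIs the monocyte shares were 27.1% ± 6.97 and 32.4% ± 0.00863 (exact permutation p = 0.333). Without thinning the groups overlapped, at 48.4% ± 12.8 and 61.2% ± 13.1 (exact permutation p = 0.667).

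In cDC1, cDC2 and B cells, too, both stress libraries lay above both controls for Irf8, and in T cells the groups overlapped. In cDC2, 109 and 78.5 CPM in the controls faced 235 and 164 CPM under stress (log2 change 0.96, SE 0.29, edgeR adjusted p = 0.0771). In cDC1 the change was 0.46 (SE 0.20, edgeR adjusted p = 0.735), and in B cells, with 275, 238, 335 and 297 CPM, it was 0.35 (SE 0.16, edgeR adjusted p = 0.377). The plasmacytoid gate was not tested because the controls held 7 cells in all, and its Irf8 level was 1076 CPM (95% Poisson interval 826 to 1376, counting error only) in control 2 against 2300 and 2602 CPM under stress. Stress above control without overlap was seen for 26.8% of the genes tested in cDC2, 22.1% in cDC1, 21.4% in monocytes and 18.2% in B cells. The gates of a library are not independent of each other. A difference between the changes in cDC2 and monocytes was not shown (-0.15, SE 0.36, edgeR adjusted p = 0.971).

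Id2 lay on opposite sides of the controls in the conventional gates. In cDC1 it gave 516 and 381 CPM in controls and 901 and 867 CPM under stress (log2 change 0.89, SE 0.25, edgeR adjusted p = 0.361), and in cDC2 282 and 191 CPM against 130.4 and 164 CPM (log2 change -0.81, SE 0.28, edgeR adjusted p = 0.123). Neither passed by itself. In cDC1 the cell with the most Id2 held 42 of 142 UMIs in control 1, 11 of 88 in control 2, 49 of 112 in stress 1 and 76 of 229 in stress 2. The difference between both changes, a comparison added after seeing the data, was -1.67 (SE 0.33, edgeR adjusted p = 0.000128), where 0.955% of 4189 genes passed, 0.382% higher and 0.573% lower, with 1 of 7 members lower, and it was lost without control 1 (adjusted p = 0.217). In cells of the cDC1 gate without a Ccr7 UMI, Id2 stood at 397 and 415 CPM in controls and 860.4 and 975 CPM under stress.

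The remaining members of the cDC2 gate did not pass. Irf4 gave 94.8 and 88.3 CPM against 62.6 and 54.7 CPM (log2 change -0.73, SE 0.33) and Flt3 114 and 127 CPM against 80.9 and 78.7 CPM (-0.66, SE 0.30), both at an edgeR adjusted p of 0.312. Batf3 changed by -0.29 (SE 0.30) and Tcf4 by 0.35 (SE 0.32), within the error. In this gate none of the 8 members overlapped between the groups, 3 with stress above (26.8% of the genes tested) and 5 with stress below (16.4% of the genes tested). In cDC1 2 lay above and 2 below (14.6% of the genes tested below), in monocytes 1 above and 3 below (19.5% below), and in B cells 2 above and 1 below (25% below). The shares cover genes that passed the filter, while the members counted include Zbtb46, which failed it in cDC1, cDC2 and monocytes. In monocytes Irf4 gave 17.9, 38.6, 5.62 and 14.6 CPM, a log2 change of -1.45 (SE 0.54, edgeR adjusted p = 0.330) that rests on 6 to 17 UMIs per library.

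The cDC2 cells were not alike in the controls. Cells with a UMI of Mgl2, a lectin of a tissue cDC2 subset and 1 of the gate's defining genes, were 33 of 52 and 16 of 26 in controls 1 and 2 (63.5 and 61.5%) and 12 of 63 and 10 of 32 in stress 1 and 2 (19.0 and 31.3%). In control cells with Mgl2, Batf stood at 167 and 201 CPM and Irf8 at 23.4 and 33.5 CPM, and in control cells without it Batf stood at 77.6 and 59.1 CPM and Irf8 at 252 and 142 CPM. The control Irf8 levels without Mgl2 rested in large part on 1 cell per library, which held 18 of 39 UMIs in control 1 and 9 of 12 in control 2. Cell by cell, Batf and Irf8 were detected together in 5 of 52 control 1 cells, Batf without Irf8 in 19 and Irf8 without Batf in 5, and in control 2 these counts were 3, 10 and 4 of 26. Under stress, cells with Mgl2 held 130.2 and 12.3 CPM of Batf (9 and 1 UMIs) and 246 and 98.4 CPM of Irf8, and cells without it 25.5 and 33.2 CPM of Batf and 232 and 189 CPM of Irf8.

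**Figure D3:**
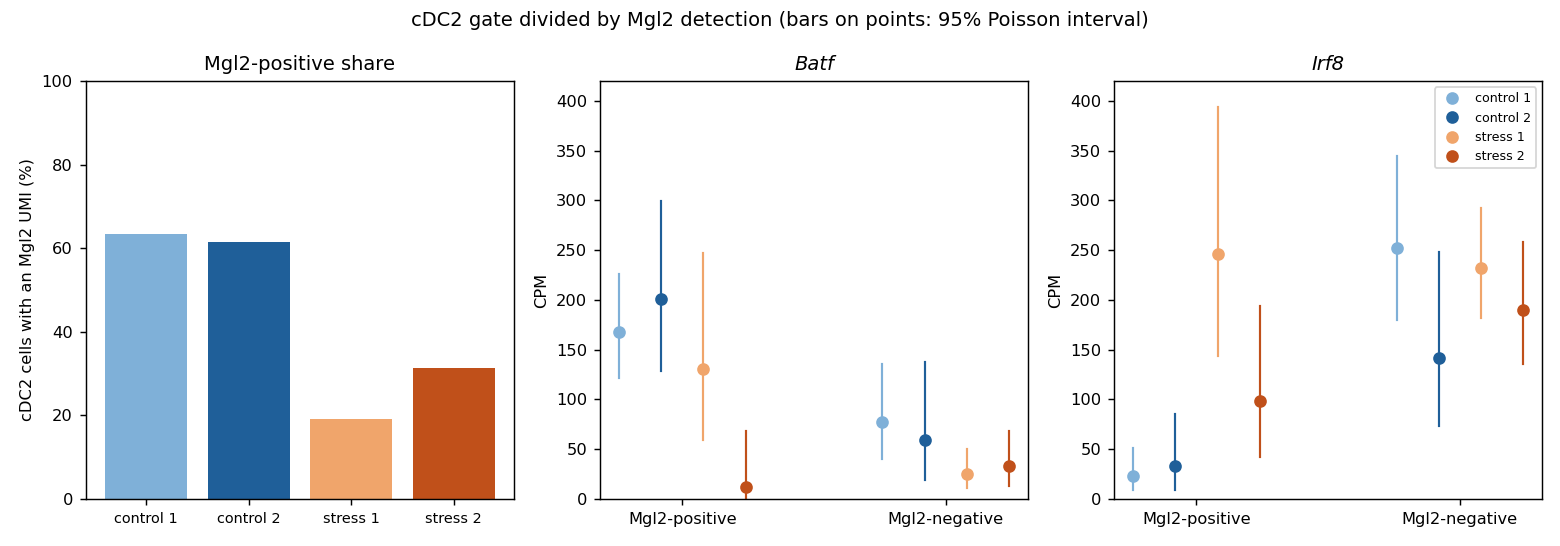
Share of cDC2 cells with an Mgl2 UMI in each library (left, bars), and Batf and Irf8 levels in CPM in cells with and without an Mgl2 UMI (points, with exact 95% Poisson intervals that cover counting error only). Irf8 in Mgl2-negative cells lies between 142 and 252 CPM with both groups mixed, and in Mgl2-positive cells at 23.4 and 33.5 CPM in controls and 246 and 98.4 CPM under stress.

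With Mgl2-positive cells left out, an alternative added after seeing the data, the Irf8 change in cDC2 was -0.02 (SE 0.33, edgeR adjusted p = 0.992), and Batf changed by -1.33 (SE 0.64, edgeR adjusted p = 0.463) on 12, 5, 8 and 7 UMIs. The Irf8 value leans on the same 2 control cells, and the fit was not repeated without them. With Mgl2 not counted among the gate's genes the changes were 1.00 for Irf8 (edgeR adjusted p = 0.0588) and -1.95 for Batf (adjusted p = 0.00116). In a looser gate, which asked for 1 UMI of the defining genes and set no limit on monocyte genes, Irf8 changed by 1.08 (SE 0.23, edgeR adjusted p = 0.0365) and Batf by -1.46 (adjusted p = 0.0207) without Siglech-positive cells. That gate held 1, 2, 11 and 5 Siglech-positive cells, and keeping them gave an Irf8 change of 1.53 (SE 0.24, edgeR adjusted p = 0.00883).

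**Figure D4:**
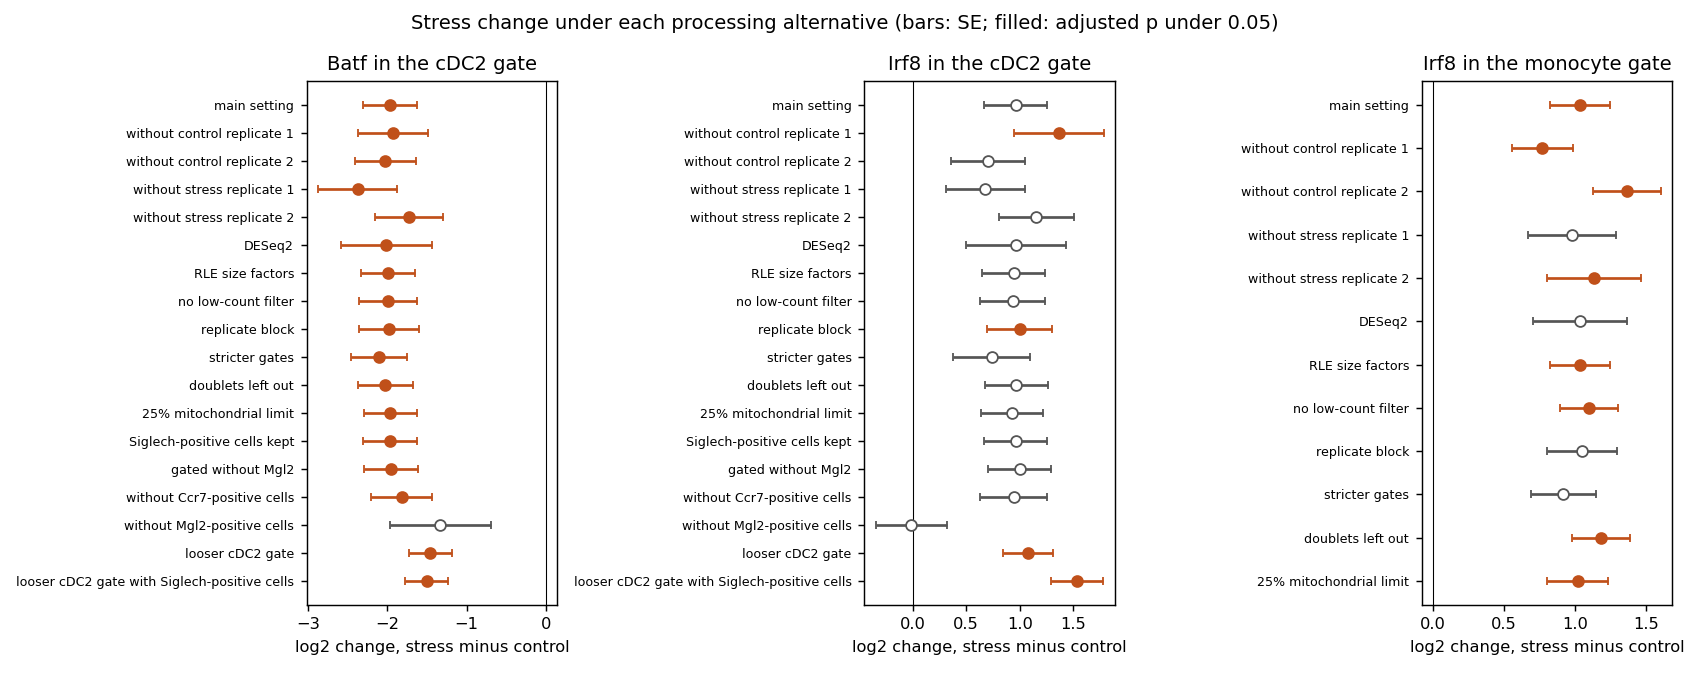
Log2 change of Batf in cDC2, Irf8 in cDC2 and Irf8 in monocytes (x axis, with bars of 1 standard error) under each processing alternative (rows). Filled points passed at an adjusted p under 0.05. Batf stays below 0 in every row shown, and Irf8 in cDC2 lies at -0.02 without Mgl2-positive cells.

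Other transcripts moved in the same gates. In cDC2 the 6 monocyte markers, of which 5 or 6 were detected per library and Hp was at 0 in control 2 and stress 2, summed to 2013 and 2903 CPM in controls and 4406 and 4863 CPM under stress, with Plac8 at 593, 736, 2061 and 2100 CPM. In control cDC2 cells without a Plac8 UMI Irf8 was at 11.5 and 26.6 CPM, and in those with it at 181 and 142 CPM. The cells with Plac8 include the 1 cell per control library that was richest in Irf8. It held 18 of the gate's 45 Irf8 UMIs in control 1 and 9 of 16 in control 2. The 6 plasmacytoid markers summed to 231 and 167 CPM in control cDC2 cells and 326 and 339 CPM under stress, with Tlr7 at 0 in all but stress 2, and the 5 T cell markers to 0, 4.90, 15.7 and 20.5 CPM, with at least 1 of them at 0 in every library. Of 6 macrophage markers C1qc was at 0 in every library, and their sum lay at 126 to 162 CPM in controls and 58.1 to 75.7 CPM under stress. Markers of group 2 innate lymphoid cells, with Gata3 at 0 in all but stress 2, lay at 63.7 to 65.6 and 10.4 to 23.9 CPM, with Areg at 31.6, 39.2, 2.61 and 3.42 CPM. Plasma cell transcripts, of which Tnfrsf17 and Derl3 were at 0 in every library and Jchain stood at 38.9, 24.5, 190.4 and 222 CPM, summed to 24.5 to 43.8 CPM and 203 to 226 CPM in the same order. In cDC1 the 6 markers of mature dendritic cells summed to 25.5 to 39.0 CPM in controls and 538 to 700 CPM under stress, with Ccr7, their chemokine receptor, at 21.8, 39.0, 330 and 288 CPM and Ccl22 and Il4i1 at 0 in both controls. These values rest on few cells. A Ccr7 UMI was seen in 3, 6, 2 and 4 cDC1 cells (12, 25, 12.5 and 23.5%), so the share of such cells did not rise under stress. Ccl22 was seen in 2 and 5 cells of stress 1 and 2. In the monocyte gate the 6 monocyte markers, all detected, summed to 10172 and 9623 CPM in controls and 12834 and 11432 CPM under stress. Plac8 stood there at 3599, 3122, 6009 and 5048 CPM, and Ccr2 at 950, 1009, 873 and 884 CPM. The 6 macrophage markers, with C1qa at 0 in both controls, summed to 217 to 333 and 170 to 201 CPM. Mrc1 was at 214, 83.1, 23.4 and 34.3 CPM and Adgre1 at 101, 131, 159 and 123 CPM. The part of these transcripts in the changes of the 8 genes was not tested beyond the divisions by Mgl2, Ccr7 and Plac8 given here.

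Genes that work with the 8 were followed through 5 lists. Of 21 tested genes of a list of other dendritic cell factors, 1 rose and 1 fell in cDC2, with a median change of -0.02 against 0.00 over all genes: Irf1, an interferon-induced factor, rose by 1.63 on the log2 scale (SE 0.28, edgeR adjusted p = 0.000989), and Zeb1, a zinc finger repressor, fell by 2.18 (SE 0.49, edgeR adjusted p = 0.0114). Spi1, which encodes the myeloid factor PU.1, changed by 0.82 and did not pass (edgeR adjusted p = 0.0581). Of 5 tested interferon regulatory factors outside the 8, 2 rose and 0 fell in cDC2, with a median of 1.43 against 0.00 over all genes, of which 3.04% passed: Irf1 again, and Irf7, an amplifier of type I interferon, which rose by 2.81 (SE 0.66, edgeR adjusted p = 0.0176). Irf7 stood at 2.43, 14.7, 54.8 and 47.9 CPM there, and 3 UMIs correspond to 7.29 and 14.7 CPM in controls 1 and 2. It is also 1 of the 6 plasmacytoid markers summed above. In monocytes Irf1 rose by 1.23 (SE 0.20, edgeR adjusted p = 0.00376), 1 of 6 tested factors, with a list median of 0.20 against 0.00 over all genes, of which 0.838% passed. In cDC1 its change of 1.88 did not pass (edgeR adjusted p = 0.139), and 0 of 4 factors did. In B cells it was 0.20, with 0 of 6 factors passing.

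Among partners of BATF and the IRF proteins, 6 were tested in cDC2 and 1 passed in each direction, with a median of 0.36 against 0.00 over all genes, of which 3.04% passed. Jun, the classical BATF partner, rose by 1.53 (SE 0.27, edgeR adjusted p = 0.00177), and Jund fell by 1.11 (SE 0.23, edgeR adjusted p = 0.00732). In monocytes Jund fell by 0.64 (SE 0.14, edgeR adjusted p = 0.0366), 1 of 7 tested, with a list median of -0.05. In B cells 0 of 7 partners passed, with 1 of 25 other dendritic cell factors higher, Prdm1 at 1.92 (edgeR adjusted p = 0.0227), and 1 lower, Klf4 at -1.05 (adjusted p = 0.0268), where 0.568% of all genes passed. Prdm1 encodes BLIMP1, a plasma cell factor, and plasma cell markers in the B gate were 2705 to 4706 CPM in controls and 12766 to 15734 CPM under stress. None of the FLT3 and CSF receptor signalling genes passed in any of the 4 gates, with 7, 8, 9 and 11 tested in cDC1, cDC2, monocytes and B cells. Of the E protein and Id family, 0 were above the filter in cDC1 and cDC2, and 0 of 3 passed in monocytes and in B cells.

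Over 18 sums of a gate in a library, Id2 and Tcf4 had the strongest relation among the 8, with a Pearson r of -0.92 of log2(CPM + 1). Batf3 stood with Id2 (0.89) and Zbtb46 (0.83) and against Tcf4 (-0.87), and the values for Irf8 reached at most -0.55 with Batf and 0.55 with Flt3. These sums share libraries and come from 5 gates, so the values describe differences between gates. Over the same sums and 5239 genes, those most like Batf3 were Adam8 (0.98), Sh3pxd2b (0.98) and Nav1 (0.98), those most like Irf8 were Sumo3 (0.94), Cd8a (0.93) and Jtb (0.89), and those most like Batf were Itgam (0.82), Ccr1 (0.82) and Bcl10 (0.79). Id2 was most like Klf6 (0.95), Ralb (0.93) and Naaa (0.93), Tcf4 like Abhd17b (0.95), Dnajc7 (0.91) and Slc44a2 (0.91), and Flt3 like Tnni2 (0.96), Ppm1m (0.94) and Srgap3 (0.93). Irf4 was most like Chtop (0.88), Cnot6l (0.87) and Tecpr1 (0.86), and Zbtb46 like Anpep (0.94), Klrb1b (0.93) and Tspan33 (0.92).

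Gate sizes did not pass a test. Cells in the plasmacytoid gate were 0 and 0.129% of kept barcodes in the controls and 0.276 and 0.387% under stress, and cells in the cDC1 gate 0.976 and 0.441% against 0.192 and 0.411%, both at a two-sided exact permutation p of 0.333, the smallest 2 against 2 libraries allow. In control 1, a count of 0 in 2562 barcodes allows a share of up to 0.117%, which covers counting error of the gate only. A Siglech UMI was seen in 11, 14, 33 and 24 kept barcodes, of which 0, 7, 23 and 16 passed the gate. The monocyte gate took 2.38 and 0.992% against 3.12 and 3.43% (exact permutation p = 0.333). The cDC2 gate took 2.03 and 0.478% against 0.756 and 0.773% (exact permutation p = 1).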

How the data were processed

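Per the labels, colon leukocytes were sorted on CD45 and profiled as single cells. The authors deposited, for each library, a filtered matrix of UMI counts per gene and barcode, not normalized. The submitters' processing notes name Cell Ranger 5 and 5.0 and the matrix header names 3.1.0, on mm10. Of the per-sample columns, 0 were unmapped.

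A barcode was kept from 500 UMIs upward and up to a mitochondrial share of 10%. Gates took cells by at least 2 UMIs of defining genes, with at least 10 MHC class II UMIs for cDC2 and 3 Lyz2 UMIs for monocytes. Cells with more than 1 UMI of other types' genes were removed, in the B gate by T cell genes only. Any Siglech UMI removed a cell from the cDC1, cDC2 and monocyte gates. Any Xcr1 or Clec9a UMI removed it from the cDC2 and monocyte gates. Raw counts were summed per gate and library (at least 10 cells) and tested over all genes that passed filterByExpr with edgeR 4.0.16 (TMM, robust quasi-likelihood, Benjamini-Hochberg adjustment) in R 4.3.3, after tests on simulated data. Gate comparisons had the library as a block. The interaction tests compared stress changes between gates. In those of cDC2 against B cells and against cDC1, and in plasmacytoid cells against cDC1, edgeR's prior degrees of freedom were infinite. The spread of the typical gene was then pooled over genes, so these p-values do not measure the gene's own variation over libraries. DESeq2 1.42.0, RLE scaling, no filter, stricter gates, doublet removal (scanpy 1.11.5), a 25% mitochondrial limit and each library left out were alternatives. No doublets were removed otherwise. Poisson and binomial intervals are exact, at 95%, and cover counting error only. Named genes were the 8 members, up to 3 genes with the smallest p per list, and the 3 most alike genes with at least 20 CPM. Members, lists and gates were chosen with earlier results of these data known.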

Additional observations from a re-analysis of the deposited data

Results flagged for a closer look

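Batf changed differently under stress in cDC2 and B cells by a test of the difference itself: the change in cDC2 minus that in B cells was -2.39 on the log2 scale (SE 0.43, edgeR adjusted p = 1.97e-05). The spread in that fit was, for the typical gene, pooled over genes and not the gene's own. Plasma cell markers in the B gate summed to 2705 to 4706 CPM in controls and 12766 to 15734 CPM under stress, and their part was not tested. Both stress cDC2 sums of Batf lay below both control sums.

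Id2 changed differently in cDC2 and cDC1 by the same kind of test, which was added after seeing the data: the change in cDC2 minus that in cDC1 was -1.67 on the log2 scale (SE 0.33, edgeR adjusted p = 0.000128). Here, too, the spread was pooled over genes for the typical gene. In the cDC1 gate 1 cell held 49 of 112 Id2 UMIs in stress 1 and 76 of 229 in stress 2. Without control 1 the difference was -1.57 (edgeR adjusted p = 0.217). In both gates the 2 stress libraries lay to the same side of the 2 controls, below them in cDC2 and above them in cDC1.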

How the results depend on the processing

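No result for a member that passed its test changed direction under an alternative. Of the 2 called stress changes, Batf in cDC2 kept its call except without Mgl2-positive cells (-1.33, edgeR adjusted p = 0.463) and ranged from -2.38 to -1.33, and Irf8 in monocytes was not called without stress 1, with DESeq2, with stricter gates or with the replicate block. Of 311 alternatives of the 25 uncalled changes, 10 gave a call: Irf8 in cDC2 without control 1 (1.37, edgeR adjusted p = 0.0445), in both looser gates and with the replicate block, Id2 in cDC2 without control 2 (-1.12, edgeR adjusted p = 0.0148) and without scored doublets (-1.01, edgeR adjusted p = 0.0429), and, without control 1, Id2 in cDC1 (1.18, edgeR adjusted p = 0.00890), Flt3 (-1.81, edgeR adjusted p = 0.0247) and Irf4 (-1.89, edgeR adjusted p = 0.0336) in monocytes and Batf in B cells (0.81, edgeR adjusted p = 0.00135).

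Counts of called genes moved more, and the cause was not tested. Stress fits with a library left out had 1 library in a group and 1 residual degree of freedom. In most of them the spread of the typical gene was pooled over genes. The calls gained above with a library left out come from such fits. In cDC1 (11 genes) they were 15 to 66 with a library left out, 7 with DESeq2, with stricter gates and without Ccr7-positive cells, and 37 without the filter. In cDC2 (121) they were 74 to 172 with a library left out, 37 with DESeq2, 58 with stricter gates, 73 without Ccr7-positive cells, 16 without Mgl2-positive cells, 75 in the looser gate and 74 with its Siglech-positive cells kept. In monocytes (51) they were 67 to 228, 18 with DESeq2, 168 without the filter and 22 with stricter gates, and in B cells (61) 6 to 1803, 149 with DESeq2, 489 without the filter, 19 without doublets and 11 at the 25% limit. DESeq2 called 362 of the cDC1 against cDC2 genes (666 in edgeR), 197 for plasmacytoid against cDC2 (1012), 686 for monocytes (1143) and 303 for plasmacytoid against cDC1 (763). Differences of changes passed for 14 to 53 genes with a library left out and 35 without the filter against monocytes (0), 12 to 132 and 78 against B cells (128), and 6 to 36 and 23 against cDC1 (40). The share of barcodes in the cDC2 gate, stress minus control, was -0.489 points and -1.26 to 0.287 with a library left out, and that in the B gate 2.36 points and -5.64 to 10.4.

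Same-numbered libraries did not deviate together (correlations of -0.037, -0.030, 0.030 and 0.061 over genes in cDC1, cDC2, monocytes and B cells). With the replicate block, 194 genes passed in cDC2 and 15 in monocytes, and Irf8 changed by 1.00 in cDC2 (edgeR adjusted p = 0.0269) and by 1.05 in monocytes (edgeR adjusted p = 0.164). Plasmacytoid fits without a stress library could not be fitted. Gates of 16 to 63 conventional dendritic cells limit every member with few UMIs.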

Other observations

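T cells, used above only as a class low in Irf8, held Batf at 91.3 and 57.4 CPM in controls 1 and 2 and at 157 and 144 CPM in stress 1 and 2, the reverse order to the cDC2 gate. This value was noticed after seeing the data and was not tested. Id2, which T cells also express, stood at 597, 216, 475 and 595 CPM in the same libraries, where the groups overlapped.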
